A study of Mus musculus with 22 samples.

Results

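The nuclear-encoded subunits of the mitochondrial respiratory chain and of the ATP synthase were described in purified cells of the mouse retina. Members were all genes of the deposited table whose symbols begin with Ndufa, Ndufb, Ndufc, Ndufs or Ndufv (assembly factors named Ndufaf left out), with Uqcr, with Atp5 or with Cox4 to Cox8, together with Sdha to Sdhd, Cyc1 and Cycs. The rule gave 82 of 13812 genes: 36 subunits of complex I, 4 of complex II, 9 of complex III, cytochrome c (Cycs), 15 of complex IV and 17 of the ATP synthase. A further 18 symbols of the gene annotation fit the rule and were not analysed here, among them the paralogs Cox6a2, Cox7b2, Cox8b, Cox8c and Ndufa4l2. Some members sit at the edge of the rule: Atp5s is coupling factor B, Cox7a2l is a factor that joins complexes III and IV into supercomplexes, and Ndufa4, named for complex I, was counted with complex IV.

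RNA was sequenced from 11 groups of 2 libraries each. Bipolars, rods and cones were each taken at 3 ages, on postnatal day 7 (P7), 13 (P13) or 30 (P30). The remaining groups were rod bipolars of P13 and cone bipolars of P13. All groups came from mouse retina, and RNA was amplified linearly after sorting. The series design calls the bipolars ON-bipolars. The labels name neither a strain or genotype nor the reporter or gate used for sorting, nor do they say if a group's libraries are from different animals. The p-values therefore rest only on how far the 2 libraries of a group lie apart, pooled over all 11 groups, which can be technical. Groups whose libraries lie further apart, such as P13 and P30 rods, are judged by that pooled spread. In RNA from a whole sorted population, fewer cells that express a gene and less RNA per cell cannot be told apart.

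The respiratory chain passes electrons from NADH through complex I, or from succinate through complex II, to complex III, cytochrome c and complex IV, where oxygen is reduced. The proton gradient built on the way drives the ATP synthase. A small set of core subunits is encoded by the mitochondrial genome and all others by nuclear genes, so each complex except complex II, which is wholly nuclear, is assembled from products of both genomes. Photoreceptors keep dense mitochondria in their inner segments, and in mice their outer segments grow out during the postnatal weeks sampled here.

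Libraries held 14.4 to 54.4 Mreads (median 36.1 Mreads), and 3 reads corresponded to 0.0541 to 0.170 CPM (read counts scaled to a common library size). All 82 members passed the filter on low values. Summed rod markers were 17710.4 to 18013 CPM in rods and 4440.2 to 4528 CPM in cones at P7, and 30727 to 36400.5 CPM in rods and 9137 to 13048 CPM in cones at P30, so the cone libraries held rod transcripts. Summed cone markers were 106 to 135 CPM in rods and 49191 to 52574 CPM in cones at P30. Bipolar markers summed to 7760.5 to 8555 CPM in bipolars at P7. The rod libraries at P13 and at P30 differed within their groups: the members together took 2.69% and 4.27% of all reads in the P13 rod libraries (replicates 1 and 2) and 1.14% and 1.76% in the P30 rod libraries, against 4.0% and 4.06% in the P7 rod libraries. Of the 82 members 80 were higher in replicate 2 than in replicate 1 at P13, and 80 at P30.

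Levels were compared between genes as CPM per kilobase of exon, averaged over the 22 libraries. Exon length counted all annotated exons of a gene, 3567 bases for Cox6c and 619 for Cox8a. Their longest coding transcripts have 738 and 550 bases, so the order within a complex depends on the length used, and other lengths were not tried. The highest member of complex I was Ndufa1, a small membrane-arm subunit, at 1141 CPM per kb. Complex III was led by Uqcrb, a supernumerary subunit, at 842 CPM per kb, complex IV by Cox8a at 603 CPM per kb, and the ATP synthase by Atp5g3, which encodes the proton-carrying c subunit, at 726 CPM per kb. In complex II Sdhd, one of the membrane anchors, had the highest average, at 109 CPM per kb, and Cycs was at 31.1 CPM per kb. These orders are of the averages: by group means Uqcrb led complex III in 11 of 11 groups and Atp5g3 the ATP synthase in 10, whereas Ndufa1 led complex I in 8, Cox8a complex IV in 7 and Sdhd complex II in 6, with Sdhc ahead in 4 and Sdhb in 1. Across groups the mean CPM was highest in P7 rods for 38 members and in P13 rods for 32. It was lowest in P7 bipolars for 30 members and in P30 rods for 24. Sdha, the flavoprotein of complex II, varied least, by 1.77-fold between its highest group mean (P30 cones) and its lowest (P7 bipolars), followed by Sdhc at 1.89-fold and the complex I core subunit Ndufs1 at 1.96-fold.

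**Figure D1:**
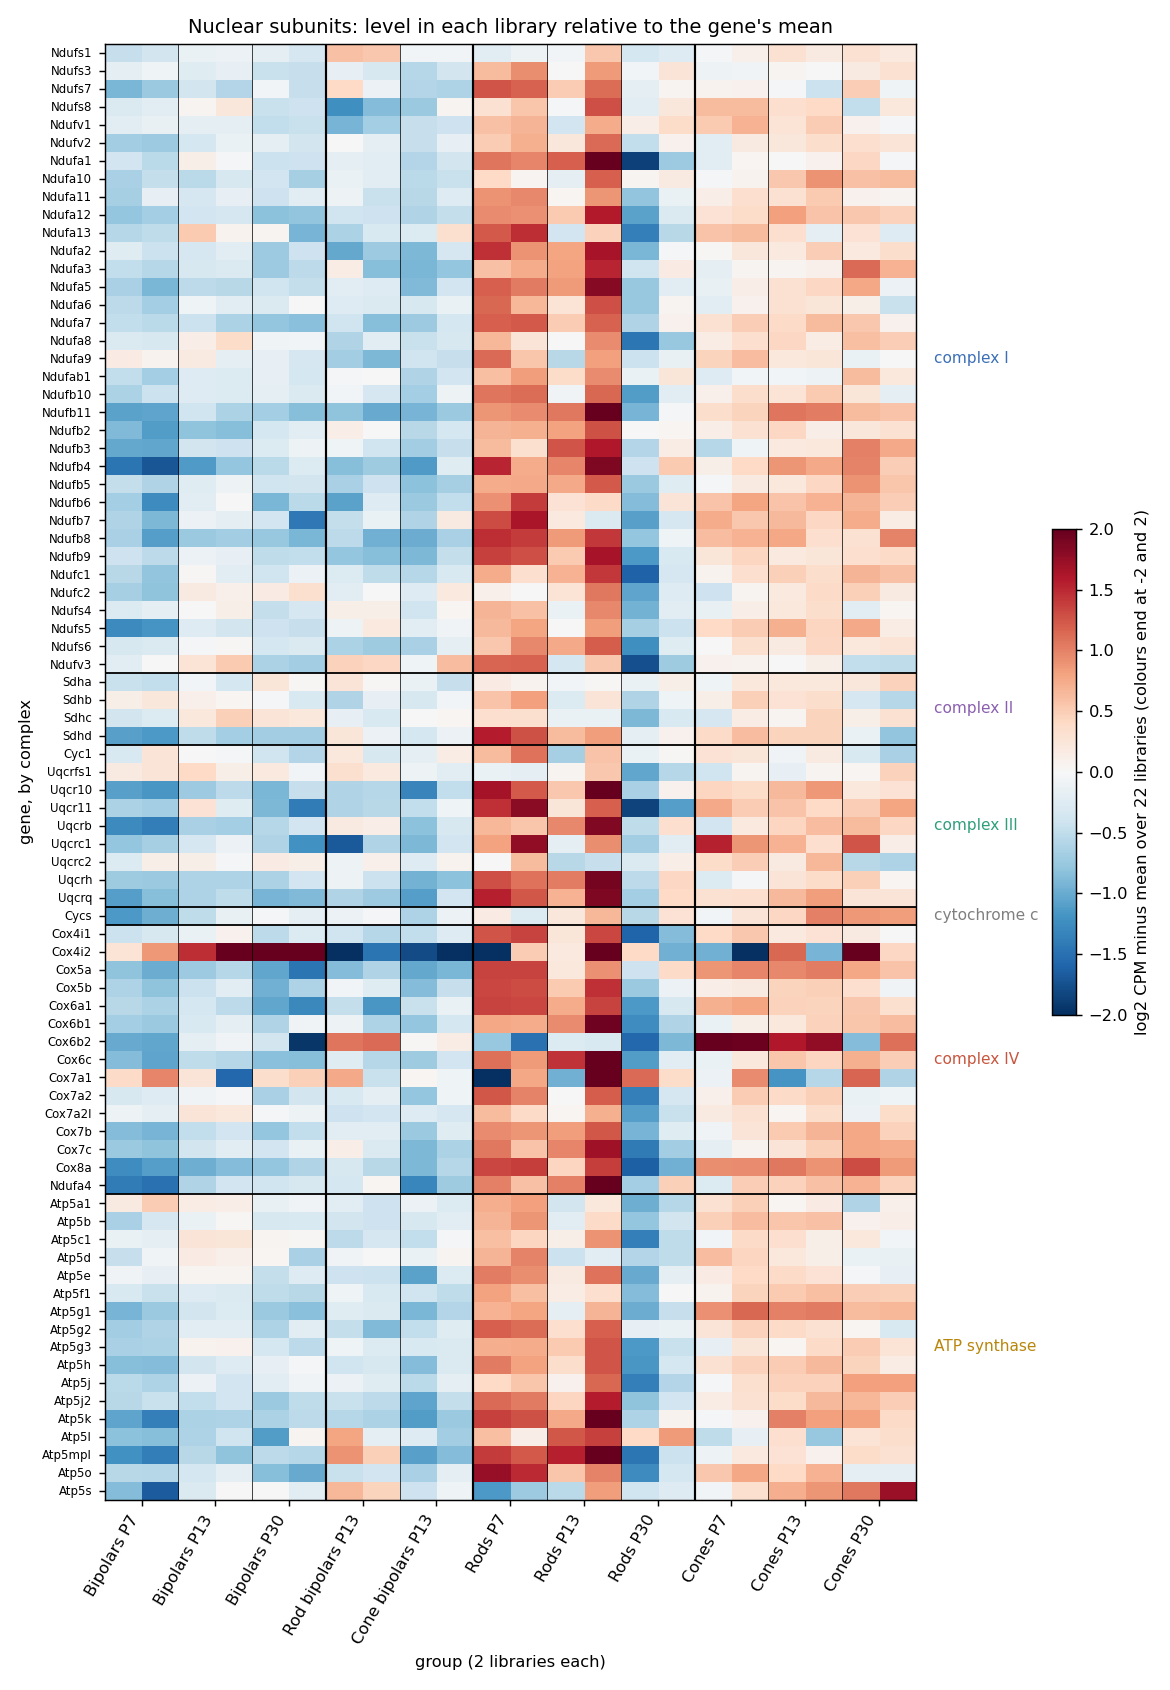
Log2 CPM of members minus each gene's mean over the 22 libraries, with members as rows grouped by complex and libraries as columns grouped by cell type and age; colours end at -2 and 2. The P7 rod libraries lie above the gene means in most rows, and the P30 rod and P7 bipolar libraries lie below them in most rows.

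The first question was how the subunits changed in rods over the weeks in which they mature. In P30 rods 56 of 82 members were lower than in P7 rods, against a background of 9.15% of all tested genes called lower and 10.7% called higher (limma, Benjamini-Hochberg adjusted p under 0.05 and a change of at least 1 on the log2 scale). No member was called higher, at an unadjusted p under 0.05 also 0 were higher, and limma with voom weights on the recovered reads called 0 higher. The members' median log2 fold change was -1.40, against 0.10 over all 13405 tested genes. The groups did not overlap for 74 members, of which 73 were lower in P30 rods, while of all tested genes 27.7% did not overlap and were lower and 32.4% did not overlap and were higher. By complex, 23 of 36 members of complex I fell, 2 of 4 of complex II, 5 of 9 of complex III, 11 of 15 of complex IV and 15 of 17 of the ATP synthase. Their median log2 fold changes were -1.27, -0.98, -1.24, -1.65 and -1.48 in that order. Of the 56 calls 53 held under every alternative setting that kept all libraries, and Ndufb4, Ndufb6 and Cox5a were not called in a fit to these groups alone. Summed Müller glia markers were 129.7 to 249 CPM in P30 rods and 120.3 to 133 CPM in P7 rods, and vascular, microglia and red blood cell markers each summed to less than the Müller glia markers in every one of these libraries.

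Complexes III and IV held the largest changes. Uqcr11, a small supernumerary subunit of complex III (chromosome 10, 80402997 to 80406830, minus strand, GRCm38), had 18.7 and 31.5 CPM in the P30 rod libraries and 186 and 236 CPM in the P7 rod libraries. Its log2 fold change was -3.11 (SE 0.32, limma Benjamini-Hochberg adjusted p = 5.13e-06). Both P30 libraries lay far below both P7 libraries. Cox8a, a small membrane subunit of complex IV (chromosome 19, 7215153 to 7217616, minus strand), had 94.8 and 152 CPM at P30 and 745 and 767 CPM at P7 in rods, a log2 fold change of -2.65 (SE 0.27, limma adjusted p = 4.91e-06). Cox4i1, the common form of subunit IV, had 165 and 274 CPM at P30 and 1196 and 1276 CPM at P7, with a log2 fold change of -2.54 (SE 0.28, limma adjusted p = 1.02e-05). For each of these genes replicate 1 was the lower of the P30 rod libraries, and neither overlapped with P7. Cox6a1, another nuclear subunit of complex IV, fell by 2.07 on the log2 scale (SE 0.27, limma adjusted p = 5.03e-05).

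In the ATP synthase, subunits of the peripheral stalk, the c ring and the catalytic head were among those that fell. Atp5o, the oligomycin-sensitivity-conferring subunit that links the catalytic head to the peripheral stalk, had 139 and 259.5 CPM in P30 rods and 1113 and 932 CPM in P7 rods (log2 fold change -2.42, SE 0.24, limma adjusted p = 5.09e-06), although 50.3% of its sequence is shared with other annotated genes. Atp5mpl, a small membrane subunit, had 90.9 and 183 CPM in P30 rods and 651 and 582 CPM in P7 rods (log2 fold change -2.25, SE 0.27, limma adjusted p = 2.66e-05). The libraries of the ages did not overlap for either gene. The 2 members not called were Atp5s at 0.61 and Atp5l, a membrane subunit most of whose sequence is shared with other genes, at 0.26. The catalytic beta subunit Atp5b, the alpha subunit Atp5a1 and Atp5g3 fell by less, with log2 fold changes of -1.35, -1.55 and -1.53.

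Within complex I the supernumerary subunits, which surround the catalytic core, held most of the calls. Of 29 supernumerary subunits 22 fell in P30 rods (median log2 fold change -1.46), and of the 7 nuclear core subunits, which carry the flavin and iron-sulfur centres or line the quinone site, 1 fell (Ndufs7, -1.28; median -0.68). The difference between these sets was not tested, and the core genes have longer exons (median 2178 bases, against 1251). Among the supernumerary subunits Ndufa1 had 110.5 and 246 CPM in P30 rods and 847 and 796 CPM in P7 rods (log2 fold change -2.32, SE 0.31, limma adjusted p = 6.26e-05). Ndufv3, Ndufa13, Ndufb7 and Ndufb9 had log2 fold changes of -2.41, -2.32, -2.18 and -2.06. The core subunits Ndufs1 and Ndufv1 did not pass the test, at -0.14 and -0.39.

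Complex II gave unlike values for its subunits. The anchor Sdhd had 103 and 125 CPM in P30 rods and 349.5 and 285 CPM in P7 rods (log2 fold change -1.47, SE 0.21, limma adjusted p = 0.000117), and the iron-sulfur subunit Sdhb fell by 1.04 on the log2 scale (SE 0.22, limma adjusted p = 0.00281). The anchor Sdhc, at -0.93 (limma adjusted p = 0.00309), missed the size threshold. Sdha had 252 and 302 CPM in P30 rods and 312 and 292 CPM in P7 rods, and these overlapped (log2 fold change -0.13, limma adjusted p = 0.631). The electron carrier Cycs was likewise not called, with 66.8 and 120.3 CPM in P30 rods and 109.8 and 81.6 CPM in P7 rods. Cyc1, the cytochrome c1 of complex III, had 131 and 146 CPM in P30 rods and 223 and 306 CPM in P7 rods, and its log2 fold change of -0.92 missed the size threshold.

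**Figure D2:**
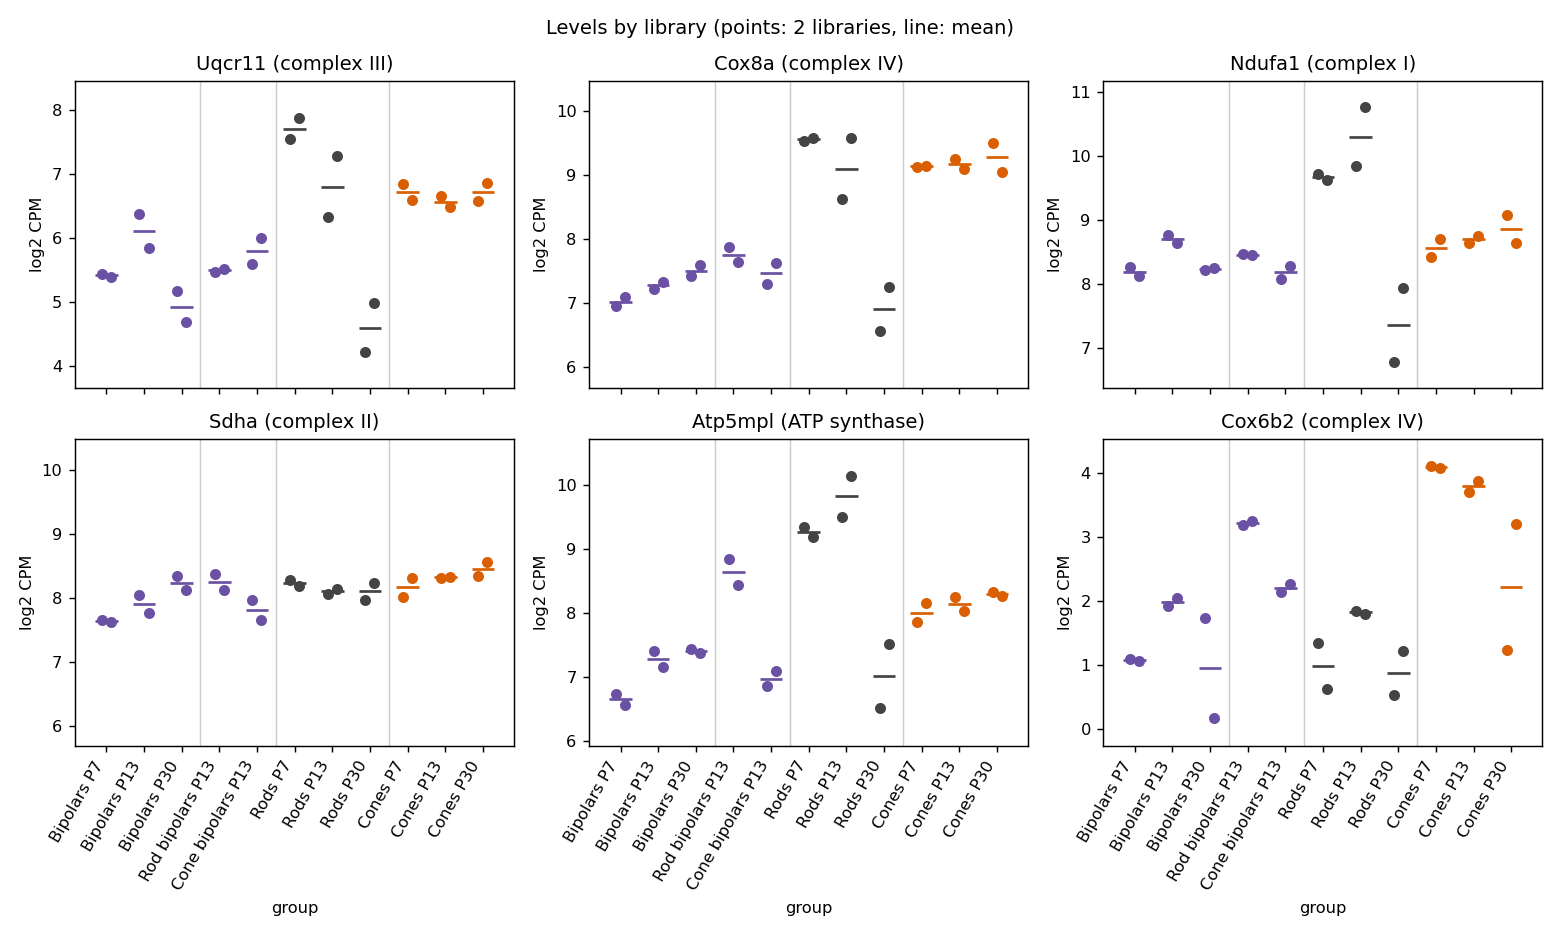
Log2 CPM in each library (points) of Uqcr11, Cox8a, Ndufa1, Sdha, Atp5mpl and Cox6b2 by cell type and age, with bars at the mean of the 2 libraries of a group; each panel is set at its gene's own level and all panels span the same log2 range. Uqcr11, Cox8a, Ndufa1 and Atp5mpl are lower in the P30 rod libraries than in the P7 rod libraries, Sdha is not, and Cox6b2 is higher in P7 cones than in P7 rods.

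The day 13 libraries divide the interval in rods into 2 steps, a comparison added after the levels had been seen. In P30 rods 47 members were lower than in P13 rods (background 5.30% lower and 6.74% higher) and 0 higher by limma, with 0 higher at an unadjusted p under 0.05 and 0 with voom weights. The members' median was -1.26, against 0.16 over all genes. Ndufa1 had 110.5 and 246 CPM in P30 rods and 926 and 1738 CPM in P13 rods, a log2 fold change of -2.94 (SE 0.31, limma adjusted p = 2.72e-05). Cox6c and Cox7c of complex IV had log2 fold changes of -2.52 and -2.39, and Atp5mpl of -2.81. The count was 30 without P13 rod replicate 2 and 29 without P30 rod replicate 1, and a fit to these groups alone called 0 members and 6 of all genes.

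In P13 rods 4 members were lower than in P7 rods (4.88%, under the background of 7.02% lower, with 5.62% higher). They were Ndufb7 at -1.51, Ndufa13 at -1.32, Atp5d, a central-stalk subunit, at -1.17 and Ndufv3 at -1.07 on the log2 scale. By limma 0 were higher, with 11 higher at an unadjusted p under 0.05 and 0 with voom weights. The median over the members was -0.10, against 0.00 over all genes. P13 rod replicate 2 was the higher of the pair for 80 of the 82 members, as in Ndufa1 with 926 and 1738 CPM in the P13 rod libraries and 847 and 796 CPM in the P7 rod libraries. Without P13 rod replicate 2 the count lower was 12. Without P13 rod replicate 1 it was 2, with 10 members higher, and without P7 rod replicate 2 it was 1. With plain totals 14 members were lower, with totals without mitochondrial transcripts 9, and in a fit to these groups alone 0.

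In cones and in bipolars few members were called over the same interval. In P30 cones 1 member was higher and 1 lower than in P7 cones (1.22% each, under the background of 3.19% higher and 7.28% lower). At an unadjusted p under 0.05 by limma, 10 members were higher and 11 lower in P30 cones. Ndufb3, a membrane-arm subunit of complex I, rose, with 936 and 785 CPM in P30 cones and 311 and 435 CPM in P7 cones (log2 fold change 1.22, SE 0.23, limma adjusted p = 0.00319). Uqcrc2, a core protein of complex III, fell, with 28.6 and 27.3 CPM in P30 cones and 53.9 and 58.9 CPM in P7 cones (log2 fold change -1.01, SE 0.26, limma adjusted p = 0.0179). In neither gene did the libraries of the ages overlap, and neither was called in a fit to the cone groups alone. The members' median was 0.07, against -0.19 over all genes. Scaling by plain library totals moved the median of all genes in this comparison to -0.97 and called 22 members lower, with the members' median at -0.72, still above that of all genes. The cone libraries also held markers of other cells: Müller glia markers, 3 of 7 higher, summed to 623 to 808 CPM in P30 cones and 195 to 260.0 CPM in P7 cones. Vascular markers, 0 of 4 called, summed to 26.8 to 34.3 CPM in P30 cones and 5.46 to 15.9 CPM in P7 cones, and the sums of rod markers are given above. Their part in the members' values was not tested.

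In P30 bipolars Ndufb4, a complex I membrane-arm subunit, was the 1 member called higher than in P7 bipolars (1.22%, under the background of 7.95% higher, with 4.5% lower). It had 51.5 and 62.3 CPM in P30 bipolars and 27.2 and 22.9 CPM in P7 bipolars (log2 fold change 1.18, SE 0.37, limma adjusted p = 0.0428). With plain totals, with TMM without mitochondrial transcripts and with voom weights it was not called. By limma 0 members were lower, also 0 at an unadjusted p under 0.05 and 0 with voom weights. At an unadjusted p under 0.05 by limma, 14 members were higher in P30 bipolars. The members' median was 0.12, against 0.02 over all genes, and with plain totals these medians were -0.05 and -0.14. Cycs had 96.5 and 87.5 CPM in P30 bipolars and 44.4 and 49.8 CPM in P7 bipolars, which did not overlap, and its log2 fold change of 0.97 missed the size threshold. The P30 bipolar libraries also held markers of other cells: Müller glia markers summed to 4037 to 6237 CPM at P30 and 172 to 179 CPM at P7, with 5 of 7 higher. Vascular markers summed to 319 to 394 CPM at P30 and 25.8 to 29.5 CPM at P7, with 3 of 4 higher, and microglia markers to 112 to 262 CPM at P30 and 3.67 to 4.89 CPM at P7. Red blood cell markers, 4 of 4 higher, summed to 111 to 169 CPM at P30 and 0.0465 to 0.0565 CPM at P7. Their part in the members' values was not tested.

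The age effect was then compared between cell types directly, in an interaction term that uses the same libraries as the comparisons above. The P30 over P7 change was lower in rods than in cones for 44 members (background 4.57% lower and 6.04% higher) and higher for 0 by limma, with 0 at an unadjusted p under 0.05 and 0 with voom weights. The members' median difference was -1.37, against 0.38 over all genes. The 44 members comprised 21 of complex I, 1 of complex II (Sdhc, -1.23), 3 of complex III, 9 of complex IV and 10 of the ATP synthase. Uqcr11 had 95.1 and 116 CPM in P30 cones and 115 and 96.4 CPM in P7 cones, so its decrease in rods had no counterpart in these cone libraries (difference of log2 fold changes -3.11, SE 0.45, limma adjusted p = 0.000578). Cox8a, with 731 and 531 CPM in P30 cones and 560.4 and 569 CPM in P7 cones, differed by -2.80 (SE 0.38, limma adjusted p = 0.000336). Without P30 rod replicate 1 the count was 23, without P7 cone replicate 1 it was 20, and 20 of the 44 members were called under every alternative setting that kept all libraries. Plain totals gave 22 lower and 1 higher, and a fit to these groups alone 22 lower.

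The P30 over P7 change was higher in bipolars than in the mean of rods and cones for 13 members (background 6.86% higher and 4.27% lower) and lower for 0 by limma, with 0 at an unadjusted p under 0.05 and 0 with voom weights. The members' median difference was 0.87, against 0.14 over all genes. The mean of rods and cones takes in the decrease in rods: the members' median change was 0.12 in bipolars, 0.07 in cones and -1.40 in rods. A difference between bipolars and cones alone was not tested. Sdhd differed by 1.64 (SE 0.26, limma adjusted p = 0.000687), and Atp5h, a peripheral-stalk subunit of the ATP synthase, by 1.64 (SE 0.34, limma adjusted p = 0.00538). Sdhd had 73.2 and 73.0 CPM in P30 bipolars and 55.8 and 53.1 CPM in P7 bipolars. The count lay between 5, without P7 bipolar replicate 1, and 30, without P30 rod replicate 2. It was 7 without P7 bipolar replicate 2 or P30 bipolar replicate 1, 8 without P30 rod replicate 1 and 21 without either P13 rod library. On the log2(CPM + 1) scale it was 21, with totals without mitochondrial transcripts 23 and with plain totals 43.

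**Figure D3:**
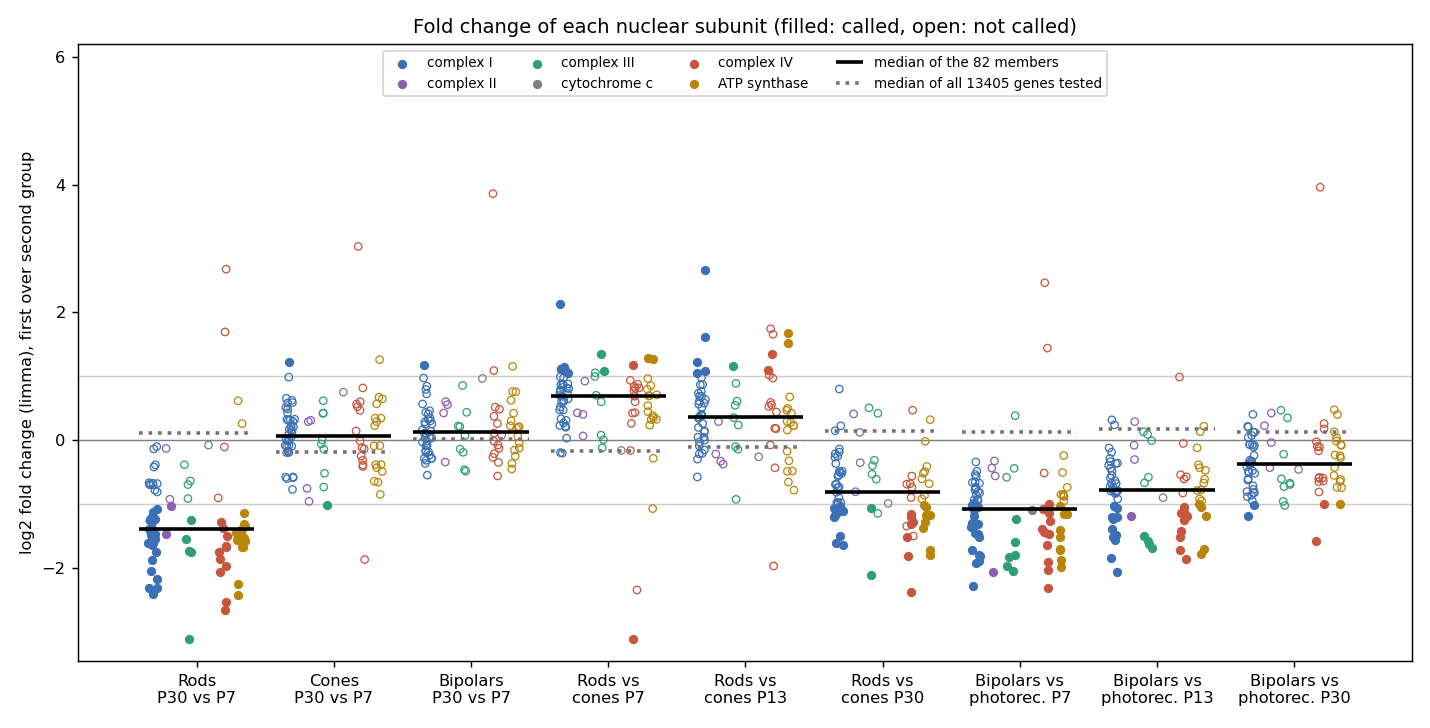
Log2 fold change of each member (points, coloured by complex; filled where called, open where not) in 9 comparisons; black lines are the members' medians and dotted lines the medians of all 13405 tested genes. The points of P30 against P7 rods are centred at -1.40, those of P30 against P7 cones at 0.07, and those of bipolars against photoreceptors at -1.08, -0.78 and -0.38 from P7 to P30.

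Rods and cones of the same age were set against each other next. At P7, 11 members were higher in rods and 1 lower (background 3.30% higher and 9.52% lower), and the members' median log2 fold change was 0.69, against -0.16 over all genes. The groups did not overlap for 70 members, of which 65 were higher in rods, while of all tested genes 24.2% did not overlap and were higher and 33.5% did not overlap and were lower. Uqcrh, the hinge protein of complex III, had 858 and 747 CPM in P7 rods and 289.6 and 343 CPM in P7 cones (log2 fold change 1.35, SE 0.28, limma adjusted p = 0.00449). Other members higher in rods included the ATP synthase membrane subunit Atp5k at 1.29, Atp5mpl at 1.26, Cox5b at 1.17 and Ndufs7 at 1.14. Cox6b2, the testis-type paralog of Cox6b1, was lower in rods, with 2.55 and 1.53 CPM in P7 rods and 17.3 and 16.9 CPM in P7 cones (log2 fold change -3.11, SE 0.74, limma adjusted p = 0.00941). The count higher was 6 without P7 rod replicate 1 and 2 without P7 cone replicate 1. Bipolar markers, 3 of 9 lower in rods, summed to 36.5 to 69.2 CPM in P7 rods and 291 to 603 CPM in P7 cones. Müller glia markers, 2 of 7 lower, summed to 120.3 to 133 CPM in P7 rods and 195 to 260.0 CPM in P7 cones. The part of these cells and of the rod transcripts held by the cone libraries in the differences was not tested.

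At P13, 10 members were higher in rods than in cones (background 7.10% higher and 14.1% lower) and 0 lower by limma, with 5 lower at an unadjusted p under 0.05 and 1 with voom weights. The members' median was 0.36, against -0.11 over all genes. Atp5mpl had 724 and 1128 CPM in P13 rods and 303 and 261 CPM in P13 cones (log2 fold change 1.68, SE 0.27, limma adjusted p = 0.000346). Ndufa1 had 926 and 1738 CPM in P13 rods and 401 and 431 CPM in P13 cones (log2 fold change 1.61, SE 0.31, limma adjusted p = 0.00133). In both genes the rod libraries lay above the cone libraries and replicate 2 was the higher rod library. The count was 26 without P13 rod replicate 1 and 4 without replicate 2, and Atp5mpl and Ndufb3 were among those called under every alternative setting that kept all libraries. A fit to these groups alone called 3 higher, and totals without mitochondrial transcripts 6 higher and 2 lower. Bipolar markers, 4 of 9 lower in rods, summed to 5.08 to 14.3 CPM in P13 rods and 377 to 456 CPM in P13 cones, and their part was not tested.

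At P30, 28 members were lower in rods than in cones (background 10% lower and 9.98% higher) and 0 higher by limma, with 1 higher at an unadjusted p under 0.05 and 0 with voom weights. The members' median was -0.81, against 0.14 over all genes. The 28 comprised 11 of complex I, all of them supernumerary, 2 of complex III, 7 of complex IV and 8 of the ATP synthase. Uqcr11 had 18.7 and 31.5 CPM in P30 rods and 95.1 and 116 CPM in P30 cones (log2 fold change -2.11, SE 0.32, limma adjusted p = 0.000167). Cox7c, Atp5j (a peripheral-stalk subunit), Atp5s and Ndufa8 had log2 fold changes of -1.81, -1.80, -1.72 and -1.65. Red blood cell markers, 4 of 4 lower in rods, summed to 0.0186 to 0.204 CPM in P30 rods and 41.8 to 55.8 CPM in P30 cones. Müller glia markers, 2 of 7 lower, summed to 129.7 to 249 CPM in P30 rods and 623 to 808 CPM in P30 cones. Bipolar markers, 2 of 9 lower, summed to 5.99 to 14.4 CPM in P30 rods and 222 to 619 CPM in P30 cones. The part of these cells in the differences was not tested. The comparison uses the P30 rod libraries that also enter the P30 against P7 comparison in rods.

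The size of this P30 difference depended on 1 library and on the scaling. The count lower was 8 without P30 rod replicate 1 and 43 without replicate 2, and a fit to rods and cones at P30 alone called 11. Scaling by plain totals, which counts the large mitochondrial share of P30 cones, moved the median of all genes to 0.74 and called 7 members lower and 4 higher. Relative to the median of all genes, the members' median was -0.96 with the deposited scaling and -0.95 with plain totals. Uqcr11, Cox7c, Cox8a, Atp5j, Atp5s and Ndufa8 were the 6 members called under every alternative setting that kept all libraries.

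Bipolars were next set against photoreceptors, taken as the average of the rod and cone groups at the same age. At P7, 46 members were lower in bipolars (background 11.1% lower and 11.6% higher), and the members' median log2 fold change was -1.08, against 0.12 over all genes. At P13, 30 were lower (background 12.8% lower and 20.6% higher), with medians of -0.78 for the members and 0.18 for all genes. At P30, 5 were lower (6.10% of the members, under the background of 13% lower, with 22.6% higher). The medians at P30 were -0.38 for the members and 0.13 for all genes. By limma 0 members were higher in bipolars at each age. At an unadjusted p under 0.05, 0 were higher at P7, 0 at P13 and 2 at P30, and with voom weights 0, 0 and 1. At P30 the count was 11 without P30 rod replicate 1, 2 without P30 rod replicate 2 and 3 without P30 cone replicate 1, and plain totals called 1 lower and 1 higher, with medians of 0.05 for the members and 0.56 for all genes.

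The difference at P7 extended over all complexes. Complex III had the lowest median, -1.59, with 6 of 9 members lower in bipolars, and complex IV had 11 of 15 lower with a median of -1.40. Complex I had 18 of 36 lower, the ATP synthase 9 of 17 and complex II 1 of 4, with medians of -1.0, -1.03 and -0.50. Sdhd had 55.8 and 53.1 CPM in P7 bipolars, against 349.5 and 285 CPM in P7 rods and 154 and 180.2 CPM in P7 cones (log2 fold change -2.07, SE 0.18, limma adjusted p = 4.1e-07). Cox8a had 124 and 137 CPM in P7 bipolars, against 745 and 767 CPM in P7 rods and 560.4 and 569 CPM in P7 cones (log2 fold change -2.32, SE 0.23, limma adjusted p = 1.78e-06). For both genes the bipolar libraries lay below every photoreceptor library of that age. Cycs was also lower in bipolars at P7, at -1.09 on the log2 scale, with 44.4 and 49.8 CPM in P7 bipolars, against 109.8 and 81.6 CPM in P7 rods and 95.2 and 118 CPM in P7 cones.

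At P13, Ndufb4 had the lowest log2 fold change in bipolars at -2.07 (SE 0.32, limma adjusted p = 0.000127), followed by Cox8a at -1.86, Ndufb11 at -1.85 and Atp5k at -1.78. Plain totals moved the median of all genes to 0.66 and left 14 members lower, and totals without mitochondrial transcripts moved it to 0.53 and left 16. Müller glia markers, 4 of 7 higher in bipolars, summed to 704 to 891 CPM in P13 bipolars, against 177 to 193 CPM in P13 rods and 240.3 to 329.9 CPM in P13 cones, and their part was not tested. The 5 members called at P30 were 2 of complex I, 2 of complex IV and 1 of the ATP synthase, and Cox5a was the lowest of them, at -1.58. Cox5a, a nuclear subunit of complex IV on its matrix side, had 6.29 and 4.66 CPM in P30 bipolars, against 9.64 and 16.8 CPM in P30 rods and 22.1 and 19.2 CPM in P30 cones. The P30 bipolar libraries are those with the glial, vascular and blood markers given above.

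Rod bipolars and cone bipolars at P13 differed in 1 member, which was higher in rod bipolars (1.22%, under the background of 1.51% higher, with 3.17% lower). Atp5mpl had 459 and 346 CPM in rod bipolars and 116 and 136 CPM in cone bipolars (log2 fold change 1.67, SE 0.27, limma adjusted p = 0.00148). It was called under every alternative and without each library in turn. By limma 0 members were lower in rod bipolars, also 0 at an unadjusted p under 0.05 and 0 with voom weights. The members' median was 0.18, against -0.06 over all genes.

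Several complex IV subunits and the c ring of the ATP synthase have paralogs, which were compared as CPM per kb. In P7 rods Cox4i1 was at 797 ± 36.5 CPM per kb (SD, n = 2) and Cox4i2, the form known from lung, at 0.139 ± 0.197. In P30 rods they were at 142 ± 50.1 and 0.176 ± 0.116 CPM per kb, so the common form was the higher one at both ages. Cox6b1 was at 566 ± 7.96 CPM per kb in P7 rods and 334 ± 40.5 in P7 cones. Cox6b2 was at 1.84 ± 0.646 CPM per kb in P7 rods and 15.5 ± 0.259 in P7 cones, with 2.36 and 9.27 CPM in the P30 cone libraries. The cone libraries at P7 and P13 lay above those of every other group for Cox6b2, and at P30 they differed from each other.

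For subunit VIIa, the common form Cox7a2 was at 558 ± 66.4 CPM per kb in P7 rods, the supercomplex factor Cox7a2l at 260.0 ± 31.0 and the muscle form Cox7a1 at 1.92 ± 2.61. Cox5b was at 257 ± 4.65 CPM per kb in P7 rods and Cox5a, an unrelated subunit despite its name, at 15.7 ± 0.0227. Ndufa4 was at 232 ± 124 CPM per kb in P30 rods and 407 ± 83.3 in P7 rods. Of the 3 genes for the identical mature c subunit, Atp5g3 was the highest in P30 rods at 401 ± 137 CPM per kb, ahead of Atp5g1 at 28.7 ± 7.44 and Atp5g2 at 10.7 ± 0.118. In P7 rods the same order held, with 1124 ± 2.77, 78.6 ± 3.87 and 26.5 ± 1.13 CPM per kb. Paralogs share sequence, and how the authors' counting treated reads that fit several genes was not recorded in the labels.

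The mitochondrial genome encodes the partner subunits, and 10 of its 13 mRNAs were analysed. Of these mt-Atp6, mt-Co2 and mt-Nd3 reached at most 15.6, 20.4 and 131 CPM in any library, so they add little to the sums below. The highest in every library was mt-Cytb, at 5532 to 245741 CPM. The shares are thus partial sums, and the reason for the low values was not tested. In rods the 10 mRNAs took 2.83% and 2.55% of all reads at P7, 7.02% and 6.82% at P13 and 9.88% and 6.39% at P30. In cones it was 6.14% and 4.61% at P7, 17.4% and 17.5% at P13 and 38.7% and 28.6% at P30. In bipolars it was 3.95% and 3.88% at P7, 4.47% and 3.97% at P13 and 8.06% and 8.48% at P30. P30 cones thus had the highest mitochondrial share. The share of all reads taken by the 82 nuclear members is given above for rods. In cones it was 1.62% and 1.73% at P30 and 2.5% and 2.76% at P7, and in bipolars 1.69% and 1.68% at P30 and 1.67% and 1.70% at P7.

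Taking mitochondrial reads out of the total left the rod values separated and brought the cone values closer. Of non-mitochondrial reads the nuclear members took 1.26% and 1.88% in P30 rods and 4.12% and 4.16% in P7 rods, against 2.64% and 2.43% in P30 cones and 2.67% and 2.89% in P7 cones. The P30 cone libraries then lay just below the P7 cone libraries, a gap smaller than the spread within either pair. In rods 57 members were called lower at P30 with totals that leave out mitochondrial transcripts, and 56 when TMM scaling (trimmed mean of M values) was recomputed without them. The shares of all genes called under these scalings are not given here. In P30 against P7 rods 6 of the 10 mitochondrial mRNAs rose, while 56 of 82 nuclear members fell (background 10.7% higher and 9.15% lower). The mitochondrial mRNAs had a median log2 fold change of 1.80, with mt-Nd5 at 2.13 and mt-Cytb at 1.97 among those that rose. Reads of mitochondrial mRNAs per nuclear-member read were 8.67 and 3.63 in P30 rods and 0.707 and 0.627 in P7 rods, 23.9 and 16.5 in P30 cones and 2.45 and 1.67 in P7 cones, and 4.76 and 5.03 in P30 bipolars and 2.36 and 2.28 in P7 bipolars. Their libraries did not overlap between the ages in any of these cell types.

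**Figure D4:**
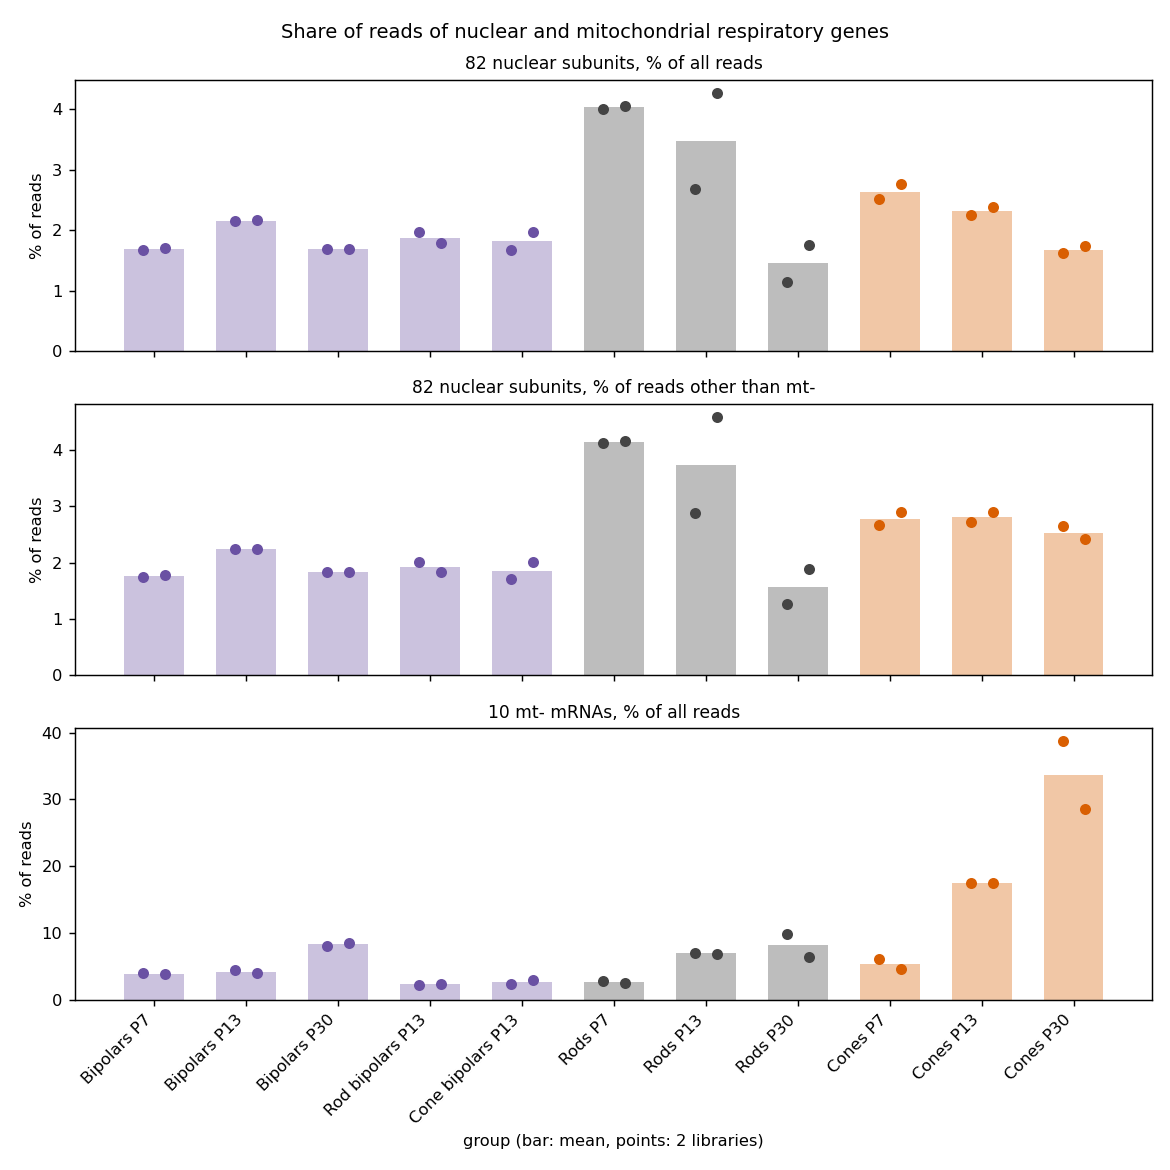
Share of reads by cell type and age in 3 panels: the 82 nuclear members in percent of all reads, the same in percent of non-mitochondrial reads, and the 10 mitochondrial mRNAs in percent of all reads; bars are means and points the 2 libraries of a group. The nuclear share is lower in P30 than in P7 rods in both nuclear panels, and the mitochondrial share is highest in P30 cones.

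The 81 genes of the cytosolic ribosomal proteins, which are short and abundant, are given beside them. In P30 rods 68 of the 81 were lower than in P7 rods (background 9.15% lower and 10.7% higher). Their median log2 fold change was -1.54, against -1.40 for the members. Between rods and cones their median was 0.90 at P7 (32 higher in rods, 39.5% of the 81, background 3.30%), 0.98 at P13 (37 higher, 45.7%, background 7.10%) and -0.25 at P30 (4 lower, 4.94%, under the background of 10%). In bipolars against photoreceptors at P7 their median was -0.35, with 14 lower (17.3%, background 11.1%). Fold changes in rods also varied with exon length: other coding genes with less than 1 kb of exon had a median of -0.37, and those over 4 kb a median of 0.20. The members' medians in those classes were -1.55, with 13 of 19 lower, and -1.14, with 6 of 11 lower, below the other genes in each of the 4 length classes. The part of RNA quality, amplification or composition in these changes was not tested.

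**Figure D5:**
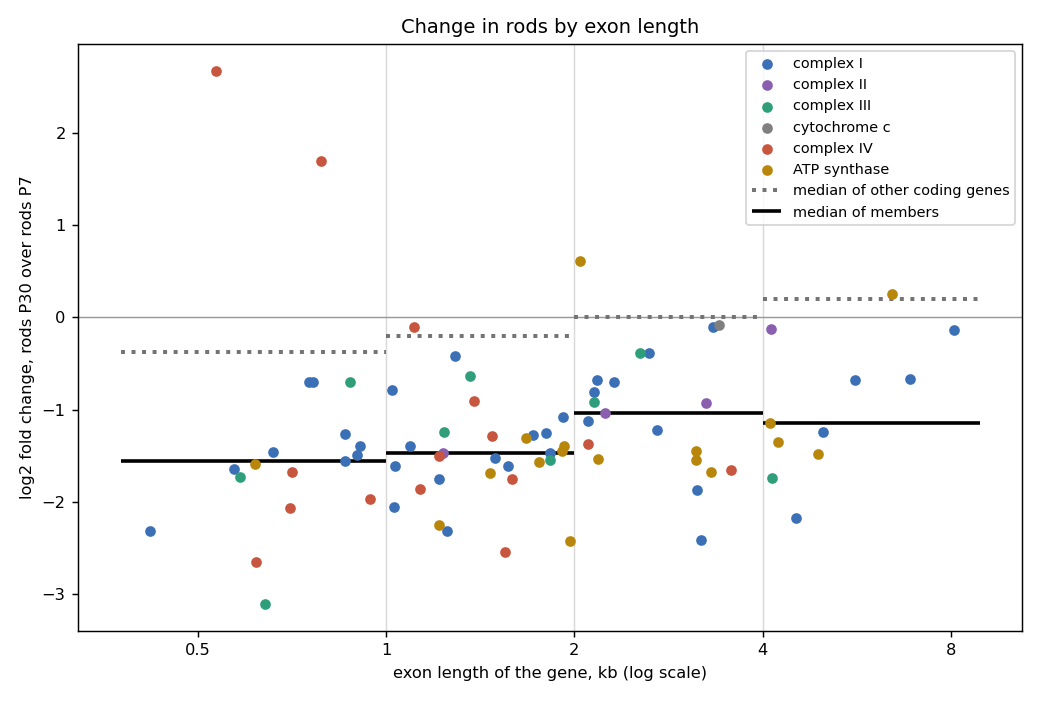
Log2 fold change of P30 against P7 rods (vertical) by exon length in kb (horizontal, log axis) for the 82 members (points), with the medians of the members and of other coding genes in each of 4 length classes (lines). The members' medians, from -1.55 to -1.04, lie below those of the other genes, from -0.37 to 0.20, in every class.

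Shared sequence touches many of these genes, several of which are known to have processed pseudogenes. Of the 82 members 46 shared at least 1 stretch of 50 bases with another annotated transcript or gene, and for 2, Atp5l (84.8% of its stretches) and Atp5o (50.3%), at least 50% was shared, so their values are uncertain. At least 25% was shared for 15 members, these 2 included. Atp5h (47.9%), Uqcrb (43.4%), Ndufb4 (37.0%), Ndufa13 (28.5%) and Cox7c (27.9%) are among the 15, and their values are uncertain to a lesser degree. The 15 had a median log2 fold change of -1.37 in P30 against P7 rods (10 lower). In P30 against P7 rods the 36 members with no shared stretch had a median log2 fold change of -1.34 (22 lower) and the 46 with one had -1.42 (34 lower). Exons of 28 members overlapped those of another gene, and the library kit does not mark strand; their median was -1.38, against -1.47 for the 54 members without such an overlap. At least 25% of the exon bases overlapped for Ndufa13, Ndufb6 and Atp5o.

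The pathways around the respiratory chain were read from lists in the same comparison of P30 with P7 rods. Of 42 tested assembly factors, which build the complexes but stay out of them, 4 rose (9.52%) and 2 fell (4.76%), both shares under the background of 10.7% higher and 9.15% lower (median 0.15). Cox17, a copper chaperone for complex IV, rose by 2.46 on the log2 scale and Cox14, another complex IV assembly factor, fell, at -1.67. Of 19 regulators of mitochondrial biogenesis 4 rose (21.1%, median 0.76): Esrrb, an estrogen-related receptor, by 3.43, Polg2, an accessory subunit of the mitochondrial DNA polymerase, by 2.05, Gabpb2 by 1.90 and the coactivator Pprc1 by 1.48. Of 21 genes of the citric acid cycle and pyruvate dehydrogenase 2 rose (9.52%) and 4 fell (19.0%, median -0.17), the lower ones including Idh2 at -1.71, Suclg1 at -1.71 and Mdh2 at -1.31. Of 8 nucleotide and phosphate carriers 1 fell (12.5%, near the background), the outer-membrane channel Vdac1 at -1.36 (median -0.51). In bipolars against photoreceptors the coactivator Ppargc1a was lower at P7, P13 and P30, with log2 fold changes of -5.48, -4.05 and -3.46. Of all tested genes 11.1%, 12.8% and 13% were called lower in bipolars at P7, P13 and P30. Other regulators are not given for that comparison, so the values of Ppargc1a do not describe the list. A part of Ppargc1a in the members' values was not tested.

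Promoters were read because so many members moved together in rods. RefSeq windows of 300 bases (250 before and 50 after the gene start, GRCm38.p6) matched 68 of the 82 members and 10790 genes of the table. The 250 bases before the start are shown for Sdha, which was not called in P30 against P7 rods, and for Ndufb4, the member called in P30 against P7 bipolars. Ndufb4 was also among the members that fell in P30 rods (log2 fold change -1.08). Cox8a and Uqcr11, which had the largest decreases in rods, are shown as well. All 4 are on the minus strand and written 5′ to 3′, and capitals mark matches to the 10-letter motif of nuclear respiratory factor 1 (NRF1), GCGCANGCG followed by C, or to TNAAGGTCA, the motif of the estrogen-related receptors.
Sdha chr13:74350241-74350490: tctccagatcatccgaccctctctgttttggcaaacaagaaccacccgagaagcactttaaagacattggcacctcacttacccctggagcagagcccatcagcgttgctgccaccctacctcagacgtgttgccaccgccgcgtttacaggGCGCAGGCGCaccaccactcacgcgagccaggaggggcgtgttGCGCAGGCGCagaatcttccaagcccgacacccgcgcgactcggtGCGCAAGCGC
Ndufb4 chr16:37654369-37654618: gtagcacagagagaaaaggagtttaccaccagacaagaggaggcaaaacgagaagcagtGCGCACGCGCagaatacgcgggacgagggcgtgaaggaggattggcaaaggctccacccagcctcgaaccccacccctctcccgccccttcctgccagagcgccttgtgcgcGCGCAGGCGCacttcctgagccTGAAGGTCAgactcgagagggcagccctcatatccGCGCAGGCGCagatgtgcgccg
Cox8a chr19:7217617-7217866: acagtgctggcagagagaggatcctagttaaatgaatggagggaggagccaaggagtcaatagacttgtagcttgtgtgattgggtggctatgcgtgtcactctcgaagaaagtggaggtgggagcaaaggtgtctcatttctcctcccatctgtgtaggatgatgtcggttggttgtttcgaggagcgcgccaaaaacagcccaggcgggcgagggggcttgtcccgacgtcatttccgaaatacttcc
Uqcr11 chr10:80406822-80407071: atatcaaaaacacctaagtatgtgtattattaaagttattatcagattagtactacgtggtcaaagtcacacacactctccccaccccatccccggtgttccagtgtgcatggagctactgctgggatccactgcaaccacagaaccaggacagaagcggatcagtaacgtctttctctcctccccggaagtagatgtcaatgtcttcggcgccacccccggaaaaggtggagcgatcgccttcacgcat
Sdha had 3 matches to the NRF1 motif, Ndufb4 had 3 and 1 match to TNAAGGTCA, and Cox8a and Uqcr11 had none of the motifs searched. Both strands were searched in the whole windows. The NRF1 motif was in 16 of 68 member windows (23.5%) and in 10.2% of all windows, and TNAAGGTCA in 3 (4.41%) and 0.667% of all windows. CCGGAAGTG, the GABPA motif, was in 2 (2.94%) and 4.22% of all windows, and the YY1 motif, AAGATGGCG followed by G, in 4 (5.88%) and 2.06% of all windows. Among members that fell in P30 rods 14 of 49 windows held the NRF1 motif, and among those not called 2 of 19. A match describes the letters of a window and shows no binding.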

How the data were processed

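For the authors' processing, the submitters' processing notes name STAR, edgeR and the genome GRCm38 (mm10), while the counter, annotation and gene filter were not given in the labels. The authors deposited log2 CPM values for 13812 genes in 22 libraries, on effective library sizes that the values put at 0.608 to 1.23 times the recovered read totals. Low values are steps of whole reads, from which read counts were recovered (100% of values within 0.01 reads of a whole number). IDs without a symbol (27, with 0.109% of reads) were left out of the tests. In a single limma 3.58.1 fit (R 4.3.3) to all 11 groups, with trended variance, genes at log2 CPM of at least 0 in both libraries of a group were tested (13405; 380 were not). Calls needed an adjusted p (Benjamini-Hochberg, over all tested genes) under 0.05 and an absolute log2 change of 1 or more. Fold changes are on the deposited log2 scale. Shares use recovered reads. Labels gave the groups. Replicate numbers were not used to pair libraries in this fit. Correlations of same-numbered deviations ran from -0.14 to 0.19 over 55 group pairs, and 5 exceeded 0.1. Such correlations cannot show whether same-numbered libraries belong together, and the labels do not say. Members, lists and motifs were chosen with earlier results of these data known. Named genes were the called members with the largest changes in each comparison, the paralog sets, complex II, Cyc1 and Cycs. Alternatives were other scalings, log2(CPM + 1), no filter, separate fits, a replicate block, voom weights and leaving out each library. Some named results are not reported here. The fit was tested on simulated data. Tables and figures used Python 3.11.15, pandas 2.3.3, numpy 2.4.6 and matplotlib 3.10.9.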

Additional observations from a re-analysis of the deposited data

Results flagged for a closer look

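The change between P30 and P7 differed between cell types by a test of the difference itself for the results that follow, each given as a difference of log2 fold changes. For rods minus cones 44 members were lower. The 10 with the largest differences were Uqcr11 at -3.11, Cox8a at -2.80, Cox7c at -2.68, Ndufa1 at -2.61, Atp5mpl at -2.54, Cox6b1 at -2.28, Cox6c at -2.21, Atp5k at -2.16, Cox4i1 at -2.15 and Atp5j at -2.12. In each of these genes the cone libraries showed a smaller change than the rod libraries or one of the other sign. For bipolars minus photoreceptors 13 members were higher, and the 10 with the largest differences were Cox8a at 1.74, Atp5mpl at 1.74, Atp5h at 1.64, Sdhd at 1.64, Ndufa13 at 1.56, Ndufb4 at 1.48, Cox4i1 at 1.44, Atp5o at 1.27, Ndufs7 at 1.14 and Atp5b at 1.07. Both sets rest on 2 libraries a group and share the rod and cone libraries, so the decrease in rods enters both.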

How the results depend on the processing

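Leaving out the filter on low values moved no count of called members by over 1.5 times, and no called value changed direction under any setting tried. For the counts in this section the share of all genes called under the same setting is not given. A count that moved can therefore reflect a shift of all genes as well as of the members. With plain read totals, rods against cones at P30 had 4 members higher and 7 lower, bipolars against photoreceptors had 14 lower at P13 and 1 higher and 1 lower at P30, P30 against P7 cones had 0 higher and 22 lower, P30 against P7 bipolars had 0 higher, and P13 against P7 rods had 14 lower. The same totals gave 1 higher and 22 lower for the rod-cone difference in age effect, and 43 higher for the bipolar-photoreceptor one. Plain totals moved the median of all genes by up to about 1 on the log2 scale, to 0.74 for rods against cones at P30, to -0.97 in cones and to 1.03 for the rod-cone difference. Totals without mitochondrial transcripts gave 6 higher and 2 lower for rods against cones at P13, 16 lower at P13 and 1 higher and 1 lower at P30 for bipolars against photoreceptors, 0 higher and 6 lower in cones, 9 lower in P13 against P7 rods and 23 higher for the bipolar-photoreceptor difference. TMM without mitochondrial transcripts gave 8 lower for bipolars against photoreceptors at P30 and 0 higher in P30 bipolars.

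A fit to the compared groups alone gave 3 higher for rods against cones at P13, 11 lower at P30, 1 higher for bipolars against photoreceptors at P30, 0 higher and 0 lower in cones, 4 higher in bipolars, 0 lower in P13 against P7 rods, 0 lower in P30 against P13 rods and 22 lower for the rod-cone difference; such a fit has fewer libraries to estimate the spread. On the log2(CPM + 1) scale there was 1 lower for rods against cones at P13, 1 higher and 3 lower for bipolars against photoreceptors at P30, 2 higher in cones, 4 higher in bipolars and 21 higher for the bipolar-photoreceptor difference. Voom weights, an alternative chosen after seeing the data, gave 1 lower for rods against cones at P13, 1 higher for bipolars against photoreceptors at P30, 2 higher and 2 lower in cones and 0 higher in bipolars. With the replicate number as a block, P30 against P7 bipolars had 2 members higher and P30 against P7 rods 56 lower. Whether the numbers pair the libraries is not known. Where a count moved and no value above shows the reason, the cause was not tested. A count model of the recovered reads was planned and not run.

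Leaving out 1 library at a time, rods against cones had 2 to 12 higher and 0 to 2 lower at P7, 4 to 26 higher and 0 to 2 lower at P13, and 0 to 1 higher and 8 to 43 lower at P30. Bipolars against photoreceptors had 40 to 49 lower at P7, 21 to 40 at P13 and 2 to 11 at P30, with 0 to 1 higher at P30. P30 against P7 had 39 to 63 lower and 0 to 1 higher in rods, 0 to 2 higher and 0 to 1 lower in cones and 0 to 3 higher in bipolars. P13 against P7 rods had 0 to 10 higher and 1 to 12 lower, and P30 against P13 rods 29 to 59 lower. The rod-cone difference had 20 to 56 lower, the bipolar-photoreceptor difference 5 to 30 higher, and rod against cone bipolars 1 higher throughout.

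The nuclear members' share with non-mitochondrial reads as the total was 4.14%, 3.74% and 1.57% in P7, P13 and P30 rods. It was 2.78%, 2.81% and 2.53% in P7, P13 and P30 cones, and 1.76%, 2.25% and 1.84% in P7, P13 and P30 bipolars. With the deposited scaling it was 3.71%, 4.08% and 1.45% in P7, P13 and P30 rods. The P13 rod libraries were then at 2.96% and 5.21%, on either side of the P7 rod libraries at 3.80% and 3.63%. On that scaling the share was 2.33%, 2.64% and 2.55% in P7, P13 and P30 cones. In P7, P13 and P30 bipolars it was 1.37%, 1.78% and 1.55%, in rod bipolars 1.68% and in cone bipolars 1.5%. As a share of all reads, single libraries ranged from 4.0% to 4.06%, 2.69% to 4.27% and 1.14% to 1.76% in P7, P13 and P30 rods. In P7, P13 and P30 cones they ranged from 2.5% to 2.76%, 2.25% to 2.38% and 1.62% to 1.73%. In P7, P13 and P30 bipolars they ranged from 1.67% to 1.70%, 2.15% to 2.16% and 1.68% to 1.69%. They ranged from 1.78% to 1.96% in rod bipolars and 1.66% to 1.96% in cone bipolars. Depth limits Cox4i2 and Cox7a1, which were near the level of a few reads in some libraries, and the others stood well above it.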
